A study of Homo sapiens with 18 samples.

Results

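The transcripts described here are 10 ligands and target genes of bone morphogenetic protein (BMP) and transforming growth factor beta (TGF-β) signalling: *BMP2*, *BMP4*, *TGFB1*, *ID1*, *ID2*, *ID3*, *SMAD6*, *SMAD7*, *PMEPA1* and *TGFBI*. Their probes were found by gene name in the annotation of the array, and they are 10 of the 36204 gene names measured, read by 12 of 50599 probes and 21 of 58717 spots. HT29 is a human colorectal cancer line, and HTOXAR3 is its oxaliplatin (OXA) resistant derivative, obtained from HT29 by continuous growth in increasing OXA. Each line was left untreated, exposed for 24 h to OXA, or exposed for 24 h to OXA together with Curcumin, the main active compound of turmeric. The labels and the study's methods call the first condition untreated, whereas the study's results section names a vehicle treatment. Whether those cells received vehicle is therefore not known. The OXA dose was 10 µM in HT29 and 30 µM in HTOXAR3, and the Curcumin dose was 10 µM in both. Each of the 6 groups had 3 one-colour arrays, labelled as biological replicates without a statement of whether the cultures were grown apart, so p-values measure the spread between these samples. Because the lines received different OXA doses, line and dose cannot be told apart in their responses, and cells given Curcumin alone were not analysed here.

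BMPs and TGF-β are secreted ligands that bind pairs of serine/threonine kinase receptors. The activated receptors phosphorylate SMAD proteins, SMAD1, SMAD5 and SMAD9 for BMPs and SMAD2 and SMAD3 for TGF-β, which join SMAD4 and enter the nucleus. *ID1*, *ID2* and *ID3*, encoding inhibitors of basic helix-loop-helix factors, are classical BMP targets, *PMEPA1* and *TGFBI* are classical TGF-β targets, and *SMAD6* and *SMAD7* encode inhibitory SMADs that are induced by the pathway and restrain it. In the colon BMP signals accompany the differentiation of epithelial cells, and TGF-β restrains their growth.

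A gene was called when the Benjamini-Yekutieli (BY) adjusted p of limma over all names was under 0.05 and the fold change above 1.2. Values are log2 normalised intensities, and a difference of 1 on this scale is a 2-fold change. The members changed most between the untreated lines and in HTOXAR3 under OXA plus Curcumin. Between untreated HTOXAR3 and untreated HT29, 6 of the 10 members were called, 2 higher and 4 lower, where 11.5% of all names were called, 6.26% higher and 5.28% lower. OXA changed 3 members in HT29, 2 higher and 1 lower (15.9% of all names, 8.33% higher and 7.62% lower). In HTOXAR3 it changed 3, all higher (10.2% of all names, 5.31% higher and 4.94% lower). OXA plus Curcumin changed 4 members in HT29, all higher (18.6% of all names, 9.56% higher and 9.02% lower). In HTOXAR3 it changed 7, 5 higher and 2 lower (17.5% of all names, 8.82% higher and 8.64% lower). Adding Curcumin to OXA changed 1 member in HT29, lower (5.53% of all names, 3.14% higher and 2.39% lower), and 5 in HTOXAR3, 3 higher and 2 lower (8.83% of all names, 4.43% higher and 4.41% lower). These comparisons share arrays, the untreated ones or the OXA ones, so their values stand side by side and are not independent. The median change of the members was -0.15 for the untreated lines, against -0.03 for all names. It was 0.17 against -0.01 for OXA in HT29 and 0.24 against -0.01 for OXA plus Curcumin in HTOXAR3. Members were called in both directions in each of these, so the medians do not measure the size of single changes.

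**Figure D1:**
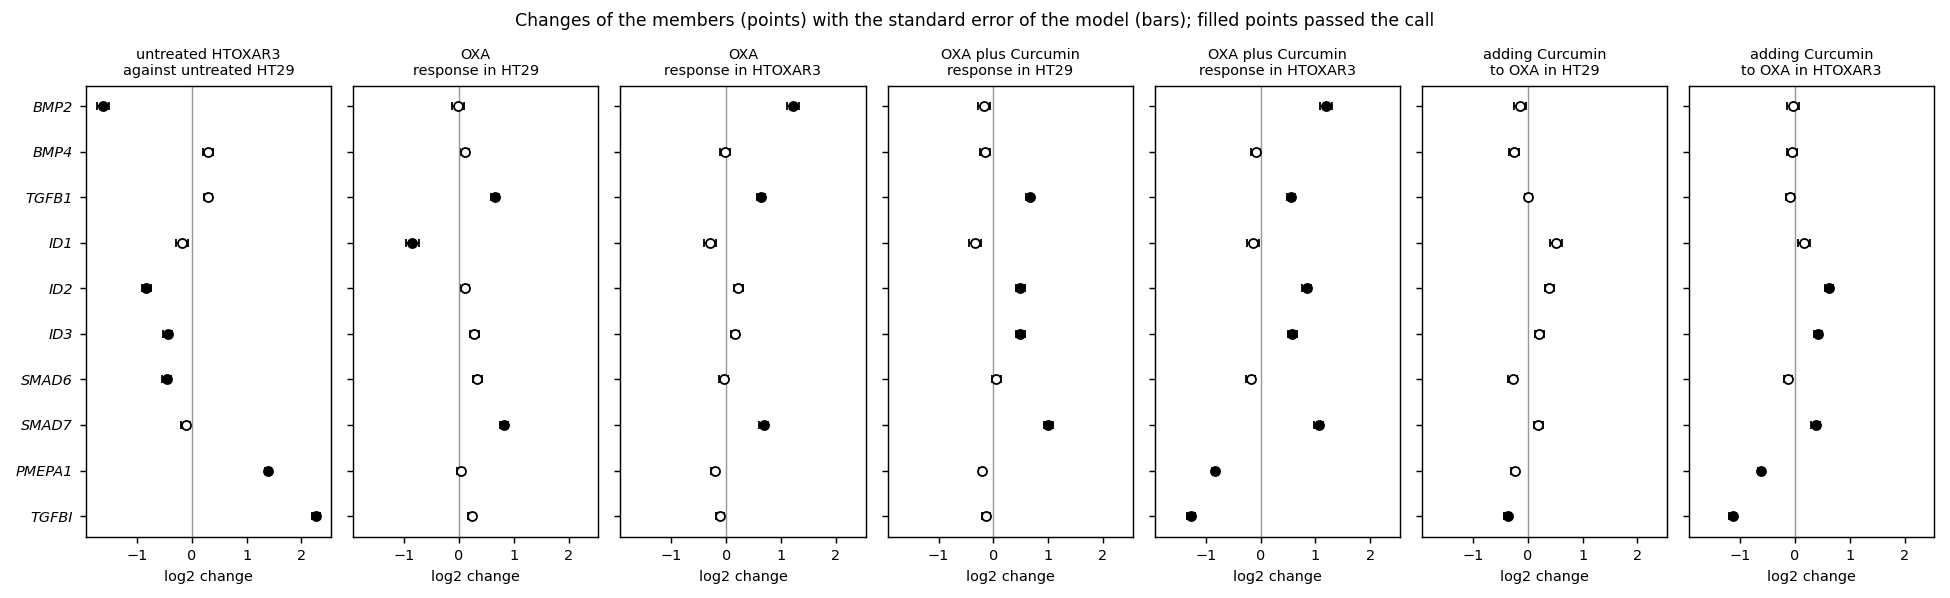
Change of each member on the log2 scale (horizontal axis) in 7 comparisons of 2 groups (panels), with the standard error of the model as bars and filled points for called changes. *TGFBI* and *PMEPA1* are to the right of 0 in the untreated comparison and to the left under OXA plus Curcumin in HTOXAR3, *BMP2* shows the opposite sides, and *SMAD7* and *TGFB1* are to the right under both treatments of both lines. *PMEPA1* is shown by the first of its 2 probes.

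All 12 member probes were well above background on all 18 arrays, with no saturated or flagged spot. The share of spots well above background ran from 52.4% to 63.6% over the arrays, the lowest within-group correlation was 0.985, and precision is limited by there being 3 arrays per group. Of 8 colorectal epithelial markers, 6 were well above background on all 18 arrays, among them *EPCAM*, *KRT20* and *CDH1*. The intestinal factor *CDX2* was so on 10 arrays, with a mean of 6.34 in HT29 and 4.09 in HTOXAR3, and *VIL1* (villin) averaged 12.76 and 10.61. Of 7 fibroblast markers none was well above background on all 18 arrays, and *COL1A2*, *COL3A1* and *THY1* were so on none. Summed fibroblast markers ran from 6.52 to 6.84 in untreated HT29 and from 6.61 to 6.94 in untreated HTOXAR3. In HT29 they were higher without overlap after OXA (6.93 to 7.02) and after OXA plus Curcumin (6.89 to 7.63), and in HTOXAR3 they ran from 6.77 to 7.27 and from 6.48 to 6.79. Their part in the treatment changes was not tested. Of 5 immune markers 4 were well above background on all arrays, with *CD14* between 10.19 and 11.52, and of 4 endothelial markers 2 were. The summed immune level ran from 11.24 to 11.39 in untreated HT29, from 11.58 to 11.65 in untreated HTOXAR3, from 10.58 to 10.62 in HT29 after OXA and from 11.11 to 11.18 in HTOXAR3 after OXA. Under OXA plus Curcumin it ran from 10.93 to 11.32 in HT29, overlapping the untreated arrays, and from 11.25 to 11.27 in HTOXAR3, below them. Its part in the results was not tested. In bulk RNA, fewer cells that express a gene and less RNA per cell cannot be told apart.

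The probes of 4 members are shown because they are the sequences that the *BMP4*, *TGFB1*, *ID2* and *ID3* values were read from. Each is 60 bases long, given 5′ to 3′ in the sense of the transcript, with no part marked. On GRCh37, the build of the array's annotation, the *BMP4* probe lies at chr14:54417318-54417377 on the minus strand and the *ID3* probe at chr1:23885666-23885725 on the minus strand. The *ID2* probe runs over chr2:8822642-8823030 on the plus strand, 389 bases of genome, and the *TGFB1* probe over chr19:41838142-41847802 on the minus strand, 9661 bases, so both cross a splice junction. *TGFB1* was read from 10 replicate spots per array and each other member probe from 1. Over the 66 pairs of member probes the longest shared run was 9 bases.
BMP4: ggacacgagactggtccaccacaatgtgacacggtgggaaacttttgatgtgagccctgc
TGFB1: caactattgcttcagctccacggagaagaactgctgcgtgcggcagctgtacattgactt
ID2: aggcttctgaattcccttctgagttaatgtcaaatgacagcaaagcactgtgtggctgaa
ID3: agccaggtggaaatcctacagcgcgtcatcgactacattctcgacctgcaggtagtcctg

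**Figure D2:**
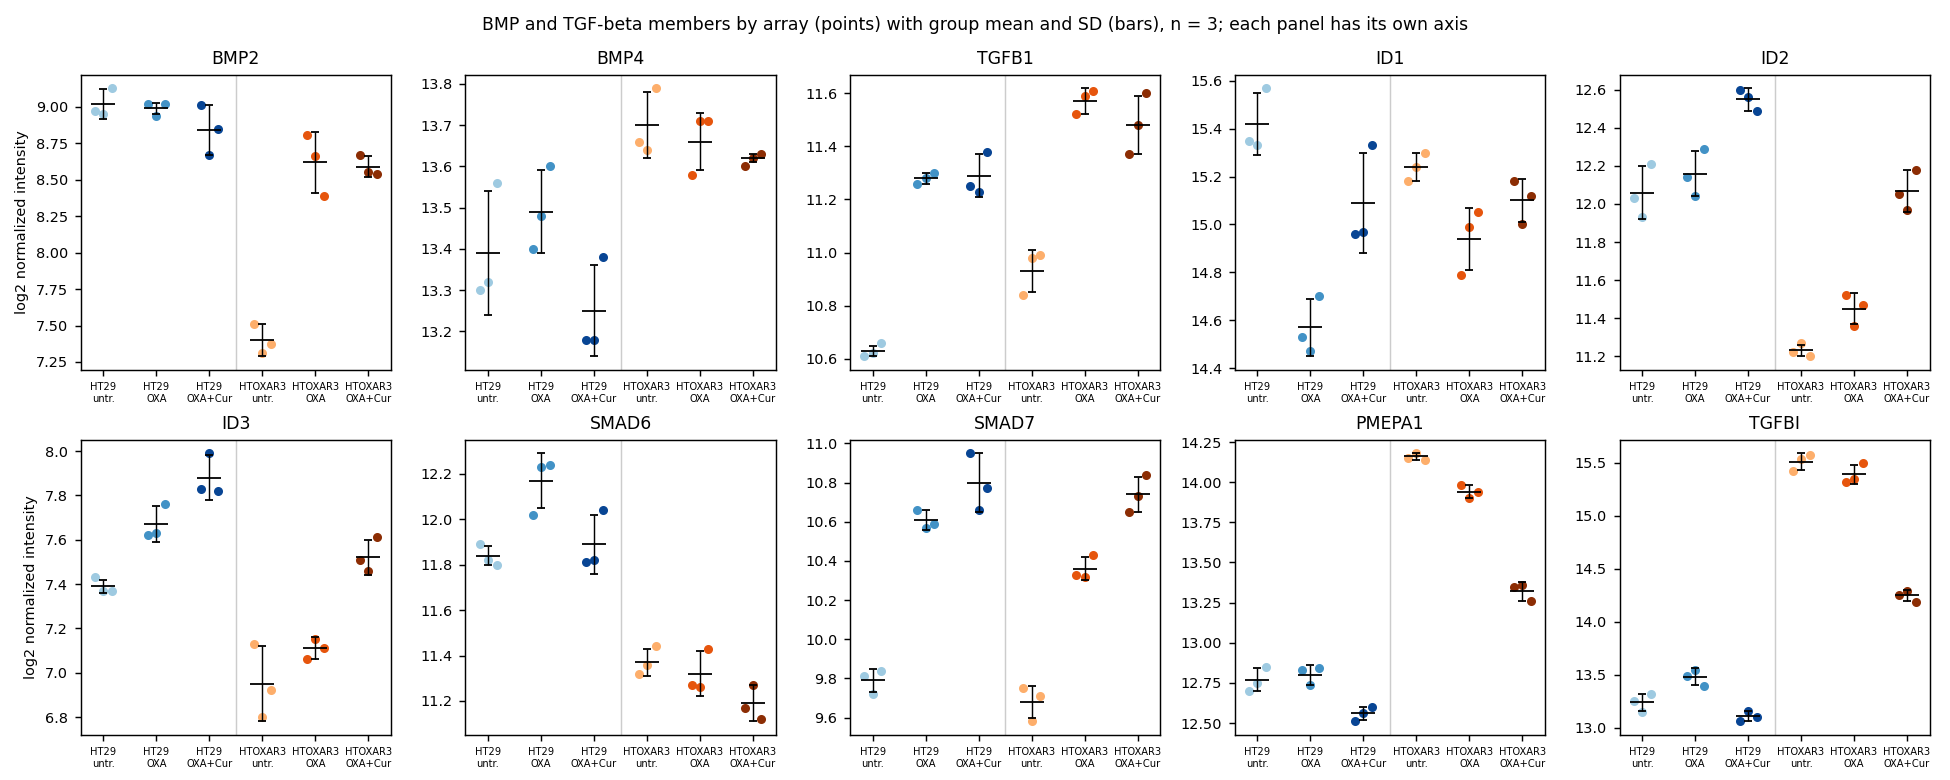
Log2 normalised intensity (vertical axis, its own range in each panel) of the 10 members on every array (points) of the 6 groups, with the group mean and SD (bars, n = 3). The untreated HTOXAR3 arrays lie lowest for *BMP2* and highest for *PMEPA1*, and *SMAD7* is lower on the untreated arrays of both lines than on any treated array.

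Of the 3 ligands, *BMP2* differed between the lines and in its response, *TGFB1* rose with OXA in both lines and *BMP4* was called in no comparison. *BMP2* encodes a BMP ligand and was read at chr20:6760810-6760869 (plus strand). The untreated HT29 arrays gave *BMP2* levels of 8.97, 8.95 and 9.13, and the untreated HTOXAR3 arrays 7.51, 7.31 and 7.37. The groups did not overlap, and *BMP2* was 3.08-fold lower in HTOXAR3 (log2 change -1.62, SE 0.11, BY adjusted p 7.56e-07 by limma). In HTOXAR3 the *BMP2* level after OXA was 8.81, 8.66 and 8.39, a 2.33-fold rise (log2 change 1.22, SE 0.11, BY adjusted p 2.89e-05 by limma). Under OXA plus Curcumin it was 8.67, 8.55 and 8.54, a 2.28-fold rise (log2 change 1.19, SE 0.11, BY adjusted p 1.36e-05 by limma). Every treated HTOXAR3 array stood above every untreated one, and the arrays of the 2 treatments overlapped. A fit of only the untreated and OXA arrays of HTOXAR3, with fewer arrays behind the spread, called 0 members. In that fit the OXA calls of *BMP2*, *SMAD7* and *TGFB1* in HTOXAR3 were thus lost. HT29 arrays stayed in place, with 9.02, 8.94 and 9.02 after OXA and 9.01, 8.67 and 8.85 after OXA plus Curcumin. The log2 changes of *BMP2* in HT29 were -0.02 and -0.17 (SE 0.11 for each), neither called, and both treated groups overlapped the untreated one. In order of level the 3 HT29 groups came first, then the treated HTOXAR3 groups, each overlapping its neighbour, and untreated HTOXAR3 came last without overlap.

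The *BMP2* response was larger in HTOXAR3 than in HT29. For OXA the line difference was 1.25 on the log2 scale (SE 0.15, BY adjusted p 0.00331 by limma), in a test that called 1 member, higher, and 1.01% of all names (0.608% higher and 0.398% lower). For OXA plus Curcumin it was 1.37 (SE 0.15, BY adjusted p 0.00304 by limma), in a test that called 3 members, 1 higher and 2 lower, and 0.856% of all names (0.32% higher and 0.536% lower). Both rest on the same untreated arrays as the difference between the lines. Within slides 2 and 3 the values were 1.40 and 1.27 for OXA and 1.36 and 1.47 for OXA plus Curcumin.

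*TGFB1* encodes the prototype TGF-β ligand. Its level was 10.61, 10.62 and 10.66 on the untreated HT29 arrays, 11.26, 11.28 and 11.30 after OXA and 11.25, 11.23 and 11.38 after OXA plus Curcumin. Neither treated group overlapped the untreated one, with rises of 1.57-fold after OXA (log2 change 0.65, SE 0.07, BY adjusted p 5.46e-05 by limma) and 1.58-fold after both compounds (0.66, SE 0.07, BY adjusted p 3.81e-05). In HTOXAR3 the *TGFB1* level went from 10.84, 10.98 and 10.99 to 11.52, 11.59 and 11.61 after OXA and to 11.37, 11.48 and 11.60 after OXA plus Curcumin. Here too the treated arrays stood above the untreated ones without overlap, by 1.56-fold (log2 change 0.64, SE 0.07, BY adjusted p 0.000139 by limma) and 1.47-fold (0.55, SE 0.07, BY adjusted p 0.000222). The line differences in these responses were -0.01 and -0.11 (SE 0.09 for each), neither called. Between OXA and OXA plus Curcumin the *TGFB1* arrays overlapped in both lines, with log2 changes of 0.01 in HT29 and -0.09 in HTOXAR3 (SE 0.07 for each). Untreated HTOXAR3 stood 0.30 above untreated HT29 without overlap, at a BY adjusted p of 0.0508 by limma, which missed the threshold. This *TGFB1* difference was called with normexp offsets of 16 and 50, with dim names left out, and with the replicate number or the slide as a block (log2 changes 0.29 to 0.31, BY adjusted p 0.0132 to 0.0349).

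*BMP4* encodes another BMP ligand. Its levels lay between 13.18 and 13.60 on the HT29 arrays and between 13.58 and 13.79 on the HTOXAR3 arrays. Log2 changes over the 7 comparisons of 2 groups ran from -0.25 to 0.30 (SE 0.09), with a lowest BY adjusted p of 0.238 by limma. Every group overlapped the next in order of level, although the untreated HTOXAR3 arrays (13.66, 13.64 and 13.79) all stood above the untreated HT29 arrays (13.30, 13.32 and 13.56). That difference has a Benjamini-Hochberg adjusted p of 0.0215 by limma, so *BMP4* would be called there under the less strict adjustment. It was also called there with the replicate number as a block (0.30, BY adjusted p 0.0344) and with slide as a block (0.28, BY adjusted p 0.0312).

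The 3 *ID* genes did not move together. OXA lowered *ID1* in HT29, whereas *ID2* and *ID3* were lower in untreated HTOXAR3 and rose under OXA plus Curcumin in both lines. *ID1* was read at chr20:30194158-30194217 (plus strand). Its level was 15.35, 15.33 and 15.57 on the untreated HT29 arrays, 14.53, 14.47 and 14.70 after OXA, and 14.96, 14.97 and 15.33 after OXA plus Curcumin. All OXA arrays were below all untreated ones, and *ID1* fell 1.80-fold (log2 change -0.85, SE 0.11, BY adjusted p 0.000416 by limma). The arrays with both compounds all lay above the OXA arrays, the highest of them meeting the lowest untreated array, and the change against untreated of -0.33 was not called (SE 0.11, BY adjusted p 0.404). This *ID1* change was called lower under both scalings to the 75th percentile (-0.50 and -0.49, BY adjusted p 0.0132 and 0.0273) and without replicate 3 of HT29 under OXA plus Curcumin (-0.45, BY adjusted p 0.0448). Set against OXA alone, the 3 arrays with Curcumin were higher without overlap, by 0.52 (SE 0.11, BY adjusted p 0.0634 by limma), which missed the threshold. That *ID1* difference passed with the replicate number as a block (0.52, BY adjusted p 0.0147) and with slide as a block (0.52, BY adjusted p 0.0345). In HTOXAR3 *ID1* was 15.18, 15.24 and 15.30 untreated, 14.79, 14.99 and 15.05 after OXA and 15.18, 15.00 and 15.12 after OXA plus Curcumin. The OXA arrays of HTOXAR3 lay below the untreated ones, by -0.30 (SE 0.11, BY adjusted p 0.866 by limma), which was not called, and the line difference in OXA response of 0.55 was not called either (SE 0.16, BY adjusted p 0.917).

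*ID2* was measured by 2 probes, which gave like changes. Its level was 12.03, 11.93 and 12.21 on the untreated HT29 arrays and 11.22, 11.27 and 11.20 on the untreated HTOXAR3 arrays. *ID2* was 1.77-fold lower in HTOXAR3, without overlap (log2 change -0.83, SE 0.08, BY adjusted p 6.33e-05 by limma). OXA alone gave 12.14, 12.04 and 12.29 in HT29 and 11.52, 11.36 and 11.47 in HTOXAR3, changes of 0.10 and 0.22 (SE 0.08 for each) that were not called, although the HTOXAR3 arrays did not overlap. With Curcumin added the *ID2* level was 12.60, 12.56 and 12.49 in HT29 and 12.05, 11.97 and 12.18 in HTOXAR3, above every other array of the same line. Against untreated cells *ID2* rose 1.41-fold in HT29 (log2 change 0.49, SE 0.08, BY adjusted p 0.00459 by limma) and 1.79-fold in HTOXAR3 (0.84, SE 0.08, BY adjusted p 4.1e-05). Against OXA alone the rise was called in HTOXAR3, at 1.54-fold (log2 change 0.62, SE 0.08, BY adjusted p 0.00168 by limma), and not in HT29 (0.39, SE 0.08, BY adjusted p 0.0768). The difference between those effects, 0.23 (SE 0.12), was not called. Under OXA plus Curcumin the HTOXAR3 arrays overlapped untreated HT29 in *ID2* level. The second *ID2* probe, at chr2:8824282-8824341, gave -0.89 between the untreated lines (SE 0.07), and 0.39 and 0.77 (SE 0.07 for each) under OXA plus Curcumin in HT29 and HTOXAR3, all called.

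*ID3* was called in the same comparisons as *ID2* and in the same directions. Its level was 7.43, 7.37 and 7.37 on the untreated HT29 arrays and 7.13, 6.80 and 6.92 on the untreated HTOXAR3 arrays. The arrays did not overlap, and *ID3* was 1.36-fold lower in HTOXAR3 (log2 change -0.44, SE 0.08, BY adjusted p 0.0151 by limma). This call was lost when any 1 of HT29 replicates 1, 2 and 3 or HTOXAR3 replicates 2 and 3, all untreated, was left out (log2 changes -0.45 to -0.36, BY adjusted p 0.0517 to 0.0922), and with slide as a block (-0.44, BY adjusted p 0.0545). After OXA the *ID3* level was 7.62, 7.63 and 7.76 in HT29 and 7.06, 7.15 and 7.11 in HTOXAR3, and neither change was called. After OXA plus Curcumin it was 7.83, 7.99 and 7.82 in HT29 and 7.51, 7.46 and 7.61 in HTOXAR3, again the highest arrays of each line. *ID3* rose 1.41-fold in HT29 (log2 change 0.49, SE 0.08, BY adjusted p 0.00366 by limma) and 1.49-fold in HTOXAR3 (0.58, SE 0.08, BY adjusted p 0.00101). Against OXA alone the change was 0.42 in HTOXAR3 (SE 0.08, BY adjusted p 0.03 by limma) and 0.21 in HT29, which was not called. The HTOXAR3 call was lost with the replicate number as a block (0.42, BY adjusted p 0.0625), with slide as a block (0.42, BY adjusted p 0.0611), and when any 1 of the 6 HTOXAR3 arrays compared was left out (0.37 to 0.45, BY adjusted p 0.0606 to 0.195).

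The promoters of the *ID* genes are shown because *ID1* was called for OXA in HT29, where *ID2* and *ID3*, called alike elsewhere, were not. They are the 250 bases before the RefSeq start on GRCh38.p14, 5′ to 3′ on the strand of the gene, at chr20:31605039-31605288 (plus strand) for *ID1*, chr2:8681806-8682055 (plus) for *ID2* and chr1:23559502-23559751 (minus) for *ID3*. Capitals mark, on either strand, the letters GTCTAGAC, the palindromic SMAD-binding sequence, CAGAC, which holds a shorter SMAD-binding core, the GC-rich letters GGCGCC and GGAGCC, and TATAAA, the TATA box. RefSeq windows were found for 9 of the 10 members, 16 windows in all, and *BMP2* had none in the table. Of all 35116 windows of this length, 0.182% held GTCTAGAC, 38% CAGAC, 16.4% GGCGCC, 30.6% GGAGCC and 10.7% TATAAA.
ID1: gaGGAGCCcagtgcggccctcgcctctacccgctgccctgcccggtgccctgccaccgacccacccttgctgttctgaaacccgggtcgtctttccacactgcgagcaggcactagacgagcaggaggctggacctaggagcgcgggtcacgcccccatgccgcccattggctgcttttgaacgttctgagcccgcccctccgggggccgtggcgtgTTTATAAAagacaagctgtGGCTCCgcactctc
ID2: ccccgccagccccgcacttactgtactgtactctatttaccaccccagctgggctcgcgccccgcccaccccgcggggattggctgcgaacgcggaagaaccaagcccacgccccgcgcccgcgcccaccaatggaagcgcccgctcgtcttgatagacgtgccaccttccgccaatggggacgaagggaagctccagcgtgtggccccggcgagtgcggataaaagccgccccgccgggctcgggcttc
ID3: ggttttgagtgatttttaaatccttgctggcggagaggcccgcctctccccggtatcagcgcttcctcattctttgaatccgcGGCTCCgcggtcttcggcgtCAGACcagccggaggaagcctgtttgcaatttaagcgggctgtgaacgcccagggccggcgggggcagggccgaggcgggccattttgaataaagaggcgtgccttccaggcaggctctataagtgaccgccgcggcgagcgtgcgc

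The *ID1* window held TATAAA on the strand of the gene, beginning 31 bases before the start, an overlapping match on the other strand, beginning 33 bases before it, and 2 matches of GGAGCC. That of *ID3* held 1 match of CAGAC and 1 of GGAGCC, and in the window of *ID2* none of the 5 searched strings occurred. A match here is a description of letters in a short window and not a site.

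Of the 2 inhibitory SMADs, *SMAD7* rose with every treatment in both lines, and *SMAD6* was called between the untreated lines and in no other comparison made. *SMAD7*, whose product blocks TGF-β and BMP receptors, was read at chr18:46446782-46446841 (minus strand). In HT29 its level was 9.81, 9.72 and 9.84 untreated, 10.66, 10.57 and 10.59 after OXA and 10.95, 10.66 and 10.77 after OXA plus Curcumin. The treated arrays all stood above the untreated ones, a 1.76-fold rise with OXA (log2 change 0.82, SE 0.08, BY adjusted p 3.13e-05 by limma) and 2.00-fold with both compounds (1.00, SE 0.08, BY adjusted p 3.44e-06). In HTOXAR3 it was 9.75, 9.58 and 9.71 untreated, 10.33, 10.32 and 10.43 after OXA and 10.65, 10.73 and 10.84 after OXA plus Curcumin. Again no treated array overlapped the untreated ones, with rises of 1.60-fold (log2 change 0.68, SE 0.08, BY adjusted p 0.000361 by limma) and 2.09-fold (1.06, SE 0.08, BY adjusted p 2.46e-06). *SMAD7* did not differ detectably between the untreated lines, whose arrays overlapped (-0.11, SE 0.08), and the line differences in its responses, -0.13 for OXA and 0.06 for OXA plus Curcumin (SE 0.11 for each), were not called. Adding Curcumin to OXA raised it 1.30-fold in HTOXAR3 (log2 change 0.38, SE 0.08, BY adjusted p 0.043 by limma), and the arrays did not overlap. That call was lost in 15 of the 18 fits that left out 1 array (0.33 to 0.42, BY adjusted p 0.055 to 0.273) and with slide as a block (0.38, BY adjusted p 0.0579). It held only without replicate 1 or replicate 2 of HT29 under OXA plus Curcumin or replicate 2 of untreated HTOXAR3. In HT29 the change on adding Curcumin was 0.19 (SE 0.08), the arrays overlapped, and it was not called.

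*SMAD6* encodes the inhibitory SMAD that acts mainly on BMP signals and was read at chr15:67074263-67074322 (plus strand). The untreated arrays gave 11.89, 11.82 and 11.80 in HT29 and 11.32, 11.36 and 11.44 in HTOXAR3. *SMAD6* was 1.38-fold lower in HTOXAR3 without overlap (log2 change -0.46, SE 0.08, BY adjusted p 0.00887 by limma). The call was lost without replicate 1 of untreated HT29 (-0.44, BY adjusted p 0.0548) and without replicate 1 of untreated HTOXAR3 (-0.44, BY adjusted p 0.0581). After treatment the HT29 arrays lay between 11.81 and 12.24 and the HTOXAR3 arrays between 11.12 and 11.43, so the lines did not overlap in any condition. OXA moved *SMAD6* by 0.33 in HT29 (SE 0.08, BY adjusted p 0.0864 by limma), and no treatment change was called. The change of *SMAD6* with OXA in HT29 passed with a normexp offset of 50 (0.32, BY adjusted p 0.031), with dim names left out (0.33, BY adjusted p 0.0286) and without replicate 1 of HT29 after OXA (0.40, BY adjusted p 0.0318). The promoter window of *SMAD6* is shown because it was the one of the 16 member windows that held GTCTAGAC, 12 bases before the start, beside 3 matches of GGAGCC. It covers chr15:66701986-66702235 (plus strand, GRCh38.p14, RefSeq), with capitals as above.
SMAD6: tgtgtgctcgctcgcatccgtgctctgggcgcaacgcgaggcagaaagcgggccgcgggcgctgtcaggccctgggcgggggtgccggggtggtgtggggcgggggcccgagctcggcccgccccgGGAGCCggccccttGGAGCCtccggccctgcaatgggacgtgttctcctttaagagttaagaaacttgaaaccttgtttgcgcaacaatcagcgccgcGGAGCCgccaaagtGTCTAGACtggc

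*PMEPA1* and *TGFBI*, the TGF-β targets, had the higher levels in HTOXAR3 when both lines were untreated, and both fell in HTOXAR3 when Curcumin was added to OXA. *TGFBI* encodes a secreted matrix protein induced by TGF-β and was read at chr5:135399343-135399402 (plus strand). Untreated HT29 arrays gave 13.25, 13.15 and 13.32 and untreated HTOXAR3 arrays 15.42, 15.54 and 15.57, a 4.83-fold difference without overlap (log2 change 2.27, SE 0.07, BY adjusted p 2.72e-10 by limma). Its values within slides 2 and 3 were 2.33 and 2.26. OXA alone left *TGFBI* at 15.32, 15.35 and 15.50 in HTOXAR3, overlapping the untreated arrays (-0.12, SE 0.07, not called). With Curcumin added it was 14.25, 14.29 and 14.19, below every other HTOXAR3 array and above every HT29 array. The fall was 2.40-fold against untreated HTOXAR3 (log2 change -1.27, SE 0.07, BY adjusted p 1.78e-07 by limma) and 2.21-fold against OXA alone (-1.14, SE 0.07, BY adjusted p 1.94e-06). In HT29 the *TGFBI* level was 13.49, 13.55 and 13.39 after OXA and 13.06, 13.16 and 13.10 after OXA plus Curcumin. Curcumin on top of OXA lowered it 1.29-fold (log2 change -0.37, SE 0.07, BY adjusted p 0.0337 by limma), without overlap, while neither change against untreated HT29 was called (0.23 and -0.13, SE 0.07 for each). That HT29 call was lost in 10 of the 18 fits that left out 1 array (-0.39 to -0.33, BY adjusted p 0.0523 to 0.201), with the replicate number as a block (-0.37, BY adjusted p 0.0589) and with slide as a block (-0.36, BY adjusted p 0.113). The 10 arrays were replicates 1 and 2 of HT29 after OXA, all 3 of HT29 under OXA plus Curcumin, replicate 1 of untreated HT29, and, in HTOXAR3, replicate 2 untreated, replicate 2 after OXA and replicates 1 and 2 under OXA plus Curcumin.

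The fall of *TGFBI* was larger in HTOXAR3 than in HT29. For OXA plus Curcumin against untreated, the line difference was -1.13 (SE 0.10, BY adjusted p 0.00055 by limma). For adding Curcumin to OXA it was -0.78 (SE 0.10, BY adjusted p 0.0323 by limma), the only member called in a test that called 0.135% of all names (0.0276% higher and 0.108% lower). The latter was lost in 16 of the 18 fits that left out 1 array (-0.81 to -0.72, BY adjusted p 0.051 to 0.162), holding only without replicate 3 of untreated HT29 or replicate 1 of HT29 under OXA plus Curcumin, with the replicate number as a block (-0.78, BY adjusted p 0.0768) and with slide as a block (-0.79, BY adjusted p 0.0816). For OXA alone the line difference of -0.36 was not called (SE 0.10, BY adjusted p 0.919). The *TGFBI* promoter window, chr5:136028738-136028987 (plus strand, GRCh38.p14, RefSeq), is shown as that of the member with the widest range, and it held 1 match of GGCGCC.
TGFBI: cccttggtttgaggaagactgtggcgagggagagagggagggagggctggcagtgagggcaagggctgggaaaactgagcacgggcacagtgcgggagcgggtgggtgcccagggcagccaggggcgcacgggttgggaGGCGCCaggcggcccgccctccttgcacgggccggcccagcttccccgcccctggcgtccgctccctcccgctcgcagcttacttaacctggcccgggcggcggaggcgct

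*PMEPA1* encodes a membrane protein that is induced by TGF-β and limits its signal. The probe used for calls, at chr20:56223489-56223548 (minus strand), gave 12.70, 12.75 and 12.85 on the untreated HT29 arrays and 14.15, 14.18 and 14.14 on the untreated HTOXAR3 arrays. The difference was 2.62-fold, without overlap (log2 change 1.39, SE 0.06, BY adjusted p 4.75e-09 by limma). In HTOXAR3 the level was 13.98, 13.90 and 13.94 after OXA and 13.35, 13.36 and 13.26 after OXA plus Curcumin, each group lying below the one before. OXA alone gave -0.21 (SE 0.06, BY adjusted p 0.166 by limma), which was not called. OXA plus Curcumin lowered *PMEPA1* 1.78-fold against untreated (log2 change -0.83, SE 0.06, BY adjusted p 9.24e-07 by limma) and 1.54-fold against OXA (-0.62, SE 0.06, BY adjusted p 5.7e-05). HT29 arrays gave 12.83, 12.74 and 12.84 after OXA and 12.51, 12.56 and 12.60 after OXA plus Curcumin, and no HT29 change was called with this probe (0.03 and -0.21 against untreated, SE 0.06 for each). The line difference in response to OXA plus Curcumin was -0.62 (SE 0.08, BY adjusted p 0.00775 by limma).

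The second *PMEPA1* probe, at chr20:56227094-56227153 (minus strand), gave the same difference between the lines and other responses to treatment. It read 10.83, 10.87 and 10.96 in untreated HT29 and 12.23, 12.35 and 12.38 in untreated HTOXAR3, a log2 change of 1.43 (SE 0.06, BY adjusted p 1.46e-08 by limma over all probes). After OXA it read 11.44, 11.51 and 11.48 in HT29 and after OXA plus Curcumin 11.44, 11.29 and 11.43. Both HT29 groups stood above the untreated arrays, and both rises were called (0.59, SE 0.06, BY adjusted p 8.8e-05, and 0.50, SE 0.06, BY adjusted p 0.000338, by limma), unlike with the first probe. In HTOXAR3 it read 12.45, 12.51 and 12.53 after OXA and 12.02, 12.10 and 12.12 after OXA plus Curcumin. The change with both compounds against untreated HTOXAR3 was -0.24 (SE 0.06, BY adjusted p 0.123 by limma), not called, where the first probe gave -0.83. Both probes fell on adding Curcumin to OXA in HTOXAR3 (-0.42 for the second, SE 0.06, BY adjusted p 0.0045) and called the line difference under OXA plus Curcumin (-0.74, SE 0.09, BY adjusted p 0.00672). Against untreated cells the probes thus differed in the call for both treatments of HT29 and for OXA plus Curcumin in HTOXAR3, and in sign for OXA plus Curcumin in HT29 and OXA in HTOXAR3. Which transcripts each probe reads was not tested.

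**Figure D3:**
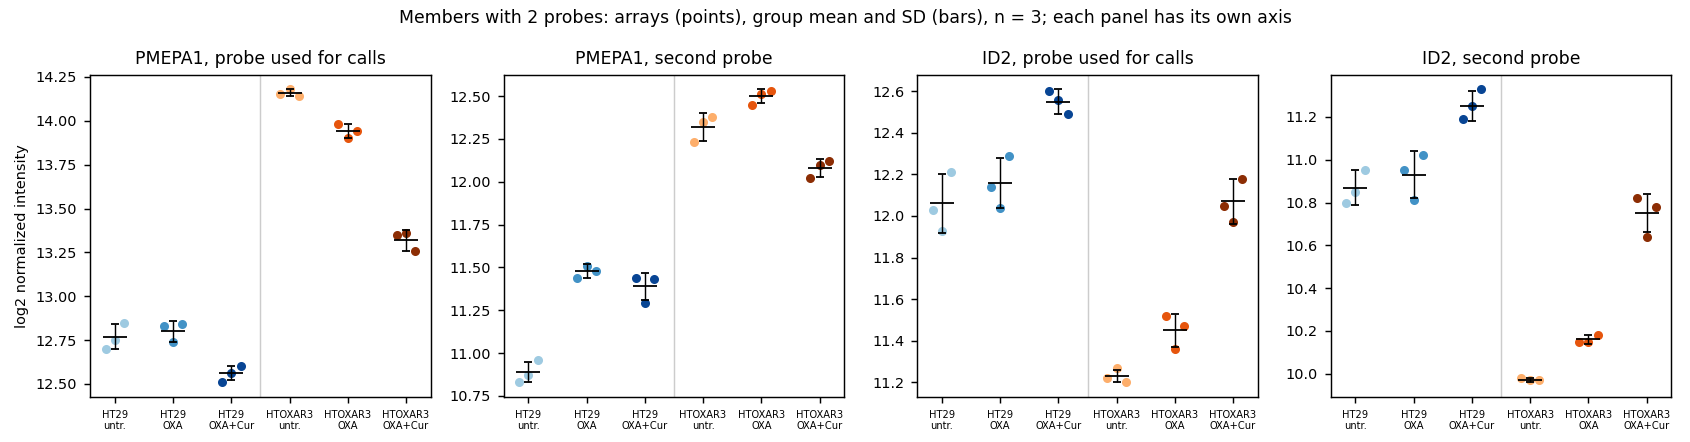
Log2 normalised intensity (vertical axis, its own range in each panel) on every array (points) of the 2 probes of *PMEPA1* and the 2 probes of *ID2*, with the group mean and SD (bars, n = 3). With both *ID2* probes the untreated HTOXAR3 arrays lie lowest and the HT29 arrays under OXA plus Curcumin highest, while for *PMEPA1* the HT29 arrays after OXA (11.44 to 11.51) lie above the untreated ones (10.83 to 10.96) with the second probe and among them with the first.

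Other genes of the pathway were counted in 9 lists by role, with 106 names on the array, of which 56 were well above background on all 18 arrays. Between the untreated lines 24 were called (22.6% of the 106, against 11.5% of all names), 14 higher and 10 lower in HTOXAR3. Among ligands *GDF11* was 2.27-fold higher (log2 change 1.18, SE 0.07, BY adjusted p 1.93e-07 by limma) and *GDF15*, a stress-induced cytokine, 1.67-fold lower (-0.74, SE 0.10, BY adjusted p 0.0013). Of 17 receptors and co-receptors 1 was higher and 4 lower (6.26% of all names higher and 5.28% lower). The co-receptor gene *TGFBR3* (betaglycan) had a log2 change of 1.19 (SE 0.11), *TGFBR2*, encoding the type II TGF-β receptor, -0.82 (SE 0.06), *ENG* (endoglin) -0.91 (SE 0.09) and *ACVR1* -0.72 (SE 0.08). *BAMBI*, encoding a decoy receptor, was 7.06-fold lower in HTOXAR3 (log2 change -2.82, SE 0.10, BY adjusted p 1.24e-09 by limma), at a mean of 6.13 (SD 0.12) against 8.95 (SD 0.08, n = 3 for each). The antagonist gene *SOSTDC1* was 3.06-fold higher (1.61, SE 0.14, BY adjusted p 1.59e-05). *BMP7* and *ANGPTL4* were called higher (1.73, SE 0.36, and 1.25, SE 0.25), but were well above background on 1 of the 3 untreated HT29 arrays, and both calls were lost with slide as a block (BY adjusted p 0.0672 and 0.0772). The *BMP7* call was also lost with the replicate number as a block (BY adjusted p 0.0567), with the processed signal (2.69, BY adjusted p 0.0705) and with the mean of all probes (1.02, BY adjusted p 0.153). Leaving out replicate 1 or 2 of untreated HT29 or any 1 untreated HTOXAR3 array lost both calls, for *ANGPTL4* with BY adjusted p of 0.0648 to 0.131. The *BMP7* call was lost in 10 of the 18 such fits, the others being without any 1 HTOXAR3 array under OXA plus Curcumin or replicate 1 or 2 of HTOXAR3 after OXA (BY adjusted p 0.0502 to 0.159 over the 10).

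OXA changed 23 pathway genes in HT29 (21.7%, against 15.9% of all names), 16 higher and 7 lower, and 19 in HTOXAR3 (17.9%, against 10.2%), 15 higher and 4 lower. *FSTL3*, encoding an extracellular binder of activins, rose 3.90-fold in HT29 (log2 change 1.96, SE 0.07, BY adjusted p 3.03e-09 by limma) and 2.21-fold in HTOXAR3 (1.14, SE 0.07, BY adjusted p 2.11e-06). *NEDD4L*, encoding a ubiquitin ligase of SMADs, fell 2.52-fold and 2.26-fold (-1.33 and -1.18, SE 0.10 for each), *SOSTDC1* 2.45-fold and 2.48-fold (-1.29 and -1.31, SE 0.14 for each). *LTBP1*, encoding a latent TGF-β binding protein, was called lower with its brightest probe (-0.98 and -0.62, SE 0.10 for each), but neither call held with the mean of its probes (-0.70 and -0.41, SE 0.25 for each, BY adjusted p 0.647 and 1 by limma). Of the lists, the other TGF-β targets had 4 of 12 called in each line, all higher (8.33% of all names higher in HT29 and 5.31% in HTOXAR3), with medians of 0.24 and 0.41 against -0.01 and 0.01 for all names. *ANGPTL4* had log2 changes of 2.40 in HT29, where it was well above background on 1 of the 3 untreated arrays and the size is therefore uncertain, and of 1.80 in HTOXAR3 (SE 0.25 for each), and *TAGLN* (transgelin) rose 2.00-fold in HT29 (1.00, SE 0.09). Line differences in the OXA response were called for 3 pathway genes, for *BAMBI* at 1.16 (SE 0.14), *FSTL3* at -0.82 (SE 0.10) and *GDF11* at -0.75 (SE 0.10), among 1.01% of all names.

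Under OXA plus Curcumin 29 pathway genes were called in HT29 (27.4%, against 18.6% of all names), 18 higher and 11 lower, and 31 in HTOXAR3 (29.2%, against 17.5%), 17 higher and 14 lower. The other TGF-β targets were called higher for 7 of 12 genes in HT29 (9.56% of all names) and 6 of 12 in HTOXAR3 (8.82%), with medians of 0.57 and 0.53. *CDKN1A*, encoding the cyclin-dependent kinase inhibitor p21, rose 4.46-fold in HT29 (log2 change 2.16, SE 0.14, BY adjusted p 3.67e-07 by limma) and 5.58-fold in HTOXAR3 (2.48, SE 0.14, BY adjusted p 1.44e-07). *ANGPTL4* had log2 changes of 3.20 in HT29, with the same limit on its untreated level, and 3.09 in HTOXAR3 (SE 0.25 for each), and *BHLHE40*, encoding a helix-loop-helix repressor, 1.63 and 1.09 (SE 0.15 for each). Of the 17 receptors and co-receptors 2 were called higher and 5 lower in HT29 (9.56% of all names higher and 9.02% lower), and 3 higher and 6 lower in HTOXAR3 (8.82% and 8.64% of all names). The lower ones included *BMPR2* in HTOXAR3 (-0.82, SE 0.12, BY adjusted p 0.001) and *ACVR2B* in HT29 (-0.76, SE 0.13, BY adjusted p 0.00557). *SMAD1*, encoding a BMP-regulated SMAD, fell 1.86-fold in HT29 (-0.90, SE 0.07, BY adjusted p 5.5e-06 by limma). The line difference of 1 pathway gene was called, *GDF11* at -0.89 (SE 0.10, BY adjusted p 0.00277 by limma), among 0.856% of all names.

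Adding Curcumin to OXA changed 8 pathway genes in HT29 (7.55%, against 5.53% of all names), 2 higher and 6 lower, and 14 in HTOXAR3 (13.2%, against 8.83%), 3 higher and 11 lower. *CDKN1A* rose 4.34-fold in HT29 (log2 change 2.12, SE 0.14, BY adjusted p 4.56e-06 by limma) and 3.02-fold in HTOXAR3 (1.60, SE 0.14, BY adjusted p 3.16e-05). *GDF11* fell in both lines (-0.67 and -0.81, SE 0.07 for each). In HTOXAR3 4 of the 17 receptors and co-receptors were called lower (4.41% of all names), among them *TGFBR3* (-0.74, SE 0.11) and *BMPR2* (-0.72, SE 0.12). *TOB1*, encoding an antiproliferative SMAD partner, rose 1.33-fold there (0.41, SE 0.06, BY adjusted p 0.00465 by limma).

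**Figure D4:**
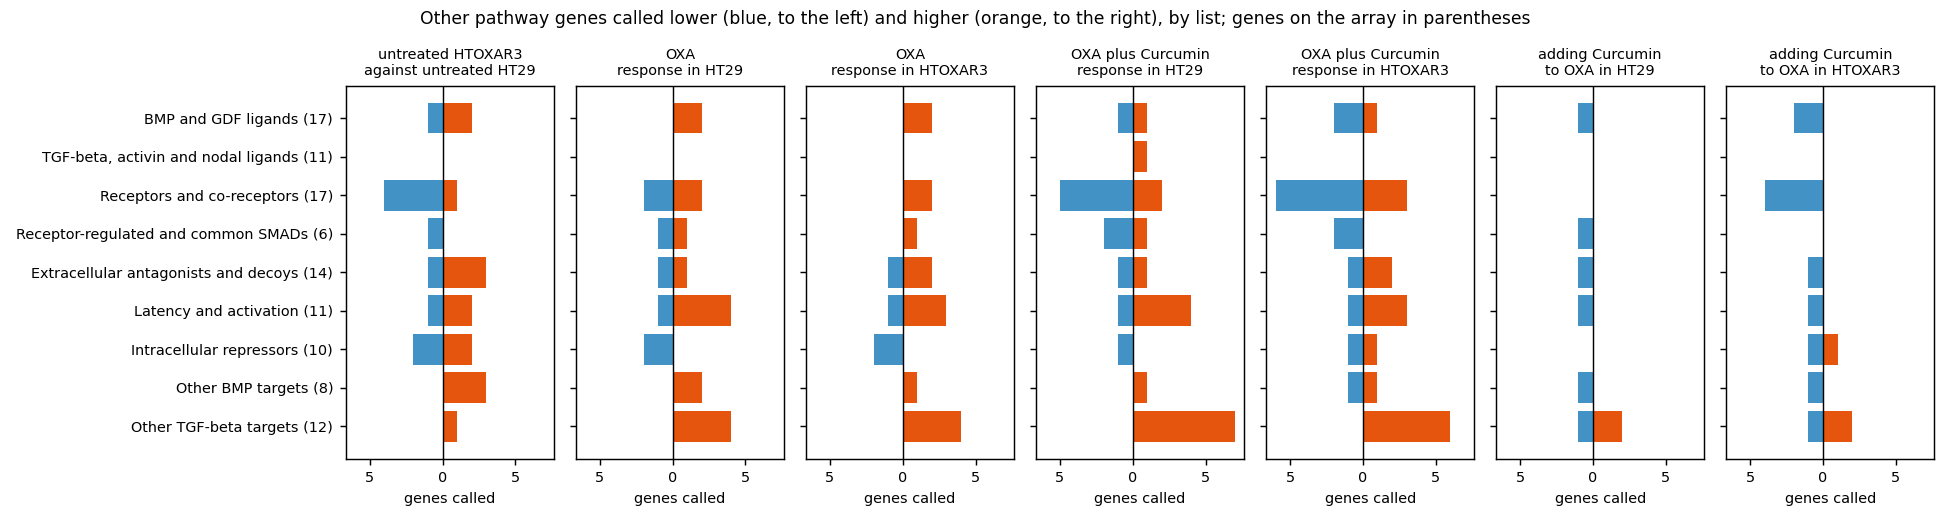
Number of pathway genes called lower (blue bars, to the left of 0) and higher (orange bars, to the right) in each of 9 lists (rows, with the number of names on the array) and 7 comparisons (panels). Other TGF-β targets lie to the right for OXA and for OXA plus Curcumin against untreated cells, up to 7 of 12 for OXA plus Curcumin in HT29, and on both sides when Curcumin was added to OXA, and receptors and co-receptors lie on both sides under OXA plus Curcumin, with 6 of 17 to the left and 3 to the right in HTOXAR3.

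As a description over the 18 arrays, which share lines, treatments and slides, the names whose levels followed each member most closely were sought among 17407 names well above background on all arrays. *PMEPA1* and *TGFBI* were each other's closest (Pearson r 0.992), followed for both by *TCTN1* (0.991 and 0.986). For *SMAD7* the closest was *PSORS1C1* (0.982), for *TGFB1* *MRPS6* (0.986) and for *SMAD6* *IL17RB* (0.974). For *ID2* it was *PLS3* (0.972), for *ID1* *AGPAT2* (0.943), for *BMP4* *BCAT2* (0.946) and for *BMP2* *SPNS2* (0.921), and no closest name of these was another member. *ID3* was closest to XLOC_013728 (0.966), a transcript that the array lists without a gene symbol, and then to *RAB17* (0.963).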

How the data were processed

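Total RNA of 18 samples was labelled with Cy3, hybridised to one-colour Agilent human arrays and extracted with Feature Extraction 10.7.3.1, per the file headers. The authors deposited each array's scanner output, in which the mean spot intensity and median local background intensity are linear and not normalised between arrays. The sample labels gave each array its group and replicate number. As in the study's methods, intensities were corrected with normexp (offset 0, since none is given there) and arrays were quantile normalised. Control spots were left out, outlier spots were set to missing, and a probe printed in several spots took their mean log2 value. The series also has log2 values that the authors deposited as a matrix, and these were not used because its rows name neither probe nor gene. Where several probes shared a name, the brightest on average stood for it. With limma 3.58.1 in R 4.3.3 (package data.table, version 1.17.8) all 18 arrays entered 1 linear model with a term per group, with BY adjustment over all names, and tested on simulated data. Line differences are interaction contrasts. Sequences and figures were made with Python 3.11.15 and matplotlib 3.10.9. A single name lacked a value in 2 groups, leaving 36203 names tested in most comparisons.

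Members and pathway lists were chosen with earlier results of these data known. All members were named with every probe. Of list genes, those named passed the call and were well above background throughout at least 1 group compared, at most the 5 largest rises and 5 largest falls of a comparison, and likeness was sought by Pearson correlation, naming at most 3 per member. Neither labels nor methods describe a pairing of replicate numbers. Deviations from the group means of same-numbered arrays correlated above 0.1 in every pair for OXA in HT29 (0.117 to 0.242) and adding Curcumin in HTOXAR3 (0.109 to 0.195), so the blocked fit stands beside those results where it changed a call. Arrays lay on 3 slides, 1 of which held only replicate 1 of untreated HT29 and of HT29 with OXA. Alternatives were 2 other offsets, dim names left out, a mean over the probes of a name, 2 scalings to the 75th percentile, Benjamini-Hochberg adjustment, a fold minimum of 2, only the groups compared, replicate or slide as a block, single slides, and each array left out.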

Additional observations from a re-analysis of the deposited data

Results flagged for a closer look

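The responses of 3 members differed between HTOXAR3 and HT29 by the interaction test of limma, and the lines received different OXA doses. *BMP2* rose more in HTOXAR3, by 1.25 on the log2 scale for OXA (SE 0.15, BY adjusted p 0.00331) and by 1.37 for OXA plus Curcumin (SE 0.15, BY adjusted p 0.00304). For *PMEPA1* under OXA plus Curcumin the line difference was -0.62 with the first probe (SE 0.08, BY adjusted p 0.00775), from a fall in HTOXAR3 (-0.83) and an uncalled -0.21 in HT29. With the second probe it was -0.74 (SE 0.09, BY adjusted p 0.00672 over all probes), from a rise in HT29 (0.50) and an uncalled -0.24 in HTOXAR3. *TGFBI* fell more in HTOXAR3, with a line difference of -1.13 for OXA plus Curcumin (SE 0.10, BY adjusted p 0.00055) and -0.78 for adding Curcumin to OXA (SE 0.10, BY adjusted p 0.0323). The latter was lost in 16 of the 18 fits that left out 1 array (BY adjusted p 0.051 to 0.162), with the replicate number as a block (0.0768) and with slide as a block (0.0816). With the probes used for calls, the HTOXAR3 arrays of the treated and comparison groups did not overlap in any of the 5 cases. These cases were picked by calls on the same arrays, so this is a description and adds no separate support. For OXA plus Curcumin against untreated HTOXAR3, 9 of the 10 members did not overlap, and no share over all names is given.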

How the results depend on the processing

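None of the 34 calls of members reversed under any alternative. All 34 were kept with normexp offsets of 16 and 50, the mean of all probes, dim names left out and Benjamini-Hochberg adjustment. The *ID3* difference between untreated lines was lost under both scalings to the 75th percentile (-0.41 and -0.37, BY adjusted p 0.061 and 0.072 by limma), where the median of all names was 0.07 and 0.06, against -0.03. Over the comparisons the median under these scalings ran from -0.19, for OXA in HTOXAR3 (0.01 as reported), to 0.09. For OXA plus Curcumin in HT29 they gave 6 and 5 members in place of 4, with *ID1* and, under the processed signal, *PMEPA1* called lower. A fold minimum of 2 lost 22 calls and left 3 members for the untreated lines, 0 and 1 for OXA in HT29 and HTOXAR3, 1 and 3 for OXA plus Curcumin, 0 and 1 for adding Curcumin and 0 for its line difference. Fitting only the groups compared, with fewer arrays behind the spread, lost 18 and left 3 for the untreated lines, 0 for OXA in HTOXAR3, 2 for OXA plus Curcumin in HT29, 0 and 1 for adding Curcumin in HT29 and HTOXAR3 and 0 for its line difference. Benjamini-Hochberg adjustment gave 5 for OXA in HT29, 4 for adding Curcumin in HT29 and 2 for the line difference in adding Curcumin. For adding Curcumin in HT29, where *TGFBI* alone was called, offsets of 16 and 50 and leaving out dim names each gave 3 members, adding *ID1* and *ID2*, and the processed signal and the mean of all probes each gave 2. The replicate block lost 3 calls, *ID3* for adding Curcumin in HTOXAR3 (BY adjusted p 0.0625), *TGFBI* for adding Curcumin in HT29 (0.0589) and *TGFBI* in its line difference (0.0768, leaving 0 members), and lost no other call of a member. It gained *BMP4* and *TGFB1* for the untreated lines (8 members) and *ID1* for adding Curcumin in HT29 (1 member still). Of the pathway genes named, it lost that of *BMP7*, the processed signal lost those of *BMP7* and of *LTBP1* for OXA in HTOXAR3, and the mean of all probes lost those of *BMP7* and *LTBP1*. The slide block gained the same members as the replicate block (7 and 1 members), lost 5 calls and left 3 members for adding Curcumin in HTOXAR3 and 0 in the line difference. Within slide 2 or slide 3 alone every called change kept its direction and none passed, with fewer arrays. Leaving out each array in turn gave 4 to 7 members for the untreated lines (4 without replicate 1 of untreated HT29), 3 to 4 and 3 for OXA in HT29 and HTOXAR3, 4 to 5 and 7 for OXA plus Curcumin, 0 to 2 and 3 to 5 for adding Curcumin, and 1, 3 and 0 to 1 for the line differences in OXA, OXA plus Curcumin and adding Curcumin. Of pathway genes, Benjamini-Hochberg adjustment called 38 in place of 24 for the untreated lines, 30 in place of 19 for OXA in HTOXAR3, 18 in place of 8 for adding Curcumin in HT29 and 22 in place of 14 in HTOXAR3. A fold minimum of 2 gave 9, 6, 6, 10, 11, 1 and 2 in the order of the comparisons above. The causes of these shifts were not tested. Shares of all names are given for the reported setting only, so counts under the alternatives cannot be set against a share of all names. The table of log2 values the authors deposited carries no names, so that alternative was not run. All member probes were well above background on all 18 arrays.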
